A study of Populus alba x Populus glandulosa with 18 samples.

Results

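In the roots of 84K poplar, 101 gene IDs stood below the wild type in a line that overexpresses bHLH58 and above it in a line that has lost bHLH58. They were chosen from measured values, by their mean differences from the wild type on the log2(FPKM + 1) scale. FPKM is the number of fragments scaled to transcript length and library size. An ID was kept with a mean of at least 1 FPKM over the 18 libraries, a difference of -0.3 or lower in bHLH58-OE, a difference of 0.3 or higher in bhlh58-KO, and all 3 bHLH58-OE libraries below all 3 bhlh58-KO libraries. Of 71159 IDs in the table, 38065 reached the mean, 104 of these also passed both differences, and 101 of the 104 showed no overlap of both lines (0.265% of the 38065).

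84K is a clonal hybrid poplar (Populus alba x Populus glandulosa), and RNA-seq of its roots was made to look for genes upstream and downstream in connection with a root phenotype. There were 6 groups of 3 libraries. They were the wild type (WT), line 20 of bHLH58-OE, line 6 of bhlh58-KO, line 40 of bhlh151-KO, line 17 of bHLH151-OE, and line 32 of the knockout of both genes, called the double knockout here. Each genotype was 1 line, so genotype and line cannot be told apart, and the sources used here do not name the promoters of the overexpression lines. All plants were of the 84K background. The labels do not tie libraries to individual plants, so p-values reflect the spread between libraries, which may be technical.

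Basic helix-loop-helix (bHLH) proteins are transcription factors that bind DNA as dimers, commonly at short motifs called E-boxes. Some members of the family activate genes and others repress them, and in plant roots members of the family act in root hair formation, iron uptake and vascular patterning. Transcripts that lie on opposite sides of the wild type when a factor is added and when it is removed are often examined as candidates for genes that the factor, directly or indirectly, holds down.

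The table does not pair its IDs with gene names, so no role is given for any ID, no list of pathway or cell type genes could be matched, and the levels of bHLH58 and bHLH151 themselves were not examined. The root origin was for the same reason not checked against marker genes. Library depth is unknown. Between 36450 and 38499 IDs per library reached 1 FPKM, and correlations of log2 values were 0.981 to 0.987 within groups and 0.918 to 0.978 between groups. In whole roots, fewer cells of a type and less RNA per cell cannot be told apart.

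The members were low to moderate in level. Their mean over the 18 libraries ran from 1.00 to 64.8 FPKM with a median of 4.71, beside a median of 5.19 for all 38065 IDs, and 54 of the 101 were under 5 FPKM. By construction all stood lower in bHLH58-OE and higher in bhlh58-KO than WT. The difference from WT had a median of -0.55 in bHLH58-OE, with a range of -2.38 to -0.30, and a median of 0.51 in bhlh58-KO, with a range of 0.32 to 2.56. The difference was the larger one in bHLH58-OE for 53 members and in bhlh58-KO for 48. At least 1 below WT on the log2 scale were 23 members in bHLH58-OE, and at least 1 above it 8 in bhlh58-KO. PAxG05Gg0088900 and PAxG05Gg0089000 were the 2 IDs that reached both, and their serial numbers follow each other. Both were singled out after their values were seen.

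In 65 of the 101 members the WT libraries lay between both lines with no overlap on either side, beside 0.505% of all tested IDs. All 3 bHLH58-OE libraries were below all WT libraries in 77 members, and all 3 bhlh58-KO libraries were above them in 85, where 12.1% and 21.0% of all tested IDs had such values. In the fit over all IDs (limma, adjusted p under 0.05), 47 members were called lower in bHLH58-OE and 65 higher in bhlh58-KO. The shares of all tested IDs called lower and higher there were 2.07% and 12.9%, and since these contrasts chose the members the counts only describe them. Members near the limits differed little from IDs just outside. The differences in bHLH58-OE closest to the limit were -0.3026 inside and -0.2998 outside. Those in bhlh58-KO were 0.3164 inside and 0.2967 outside, and the means closest to 1 FPKM were 1.000 inside and 0.992 outside.

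**Figure D1:**
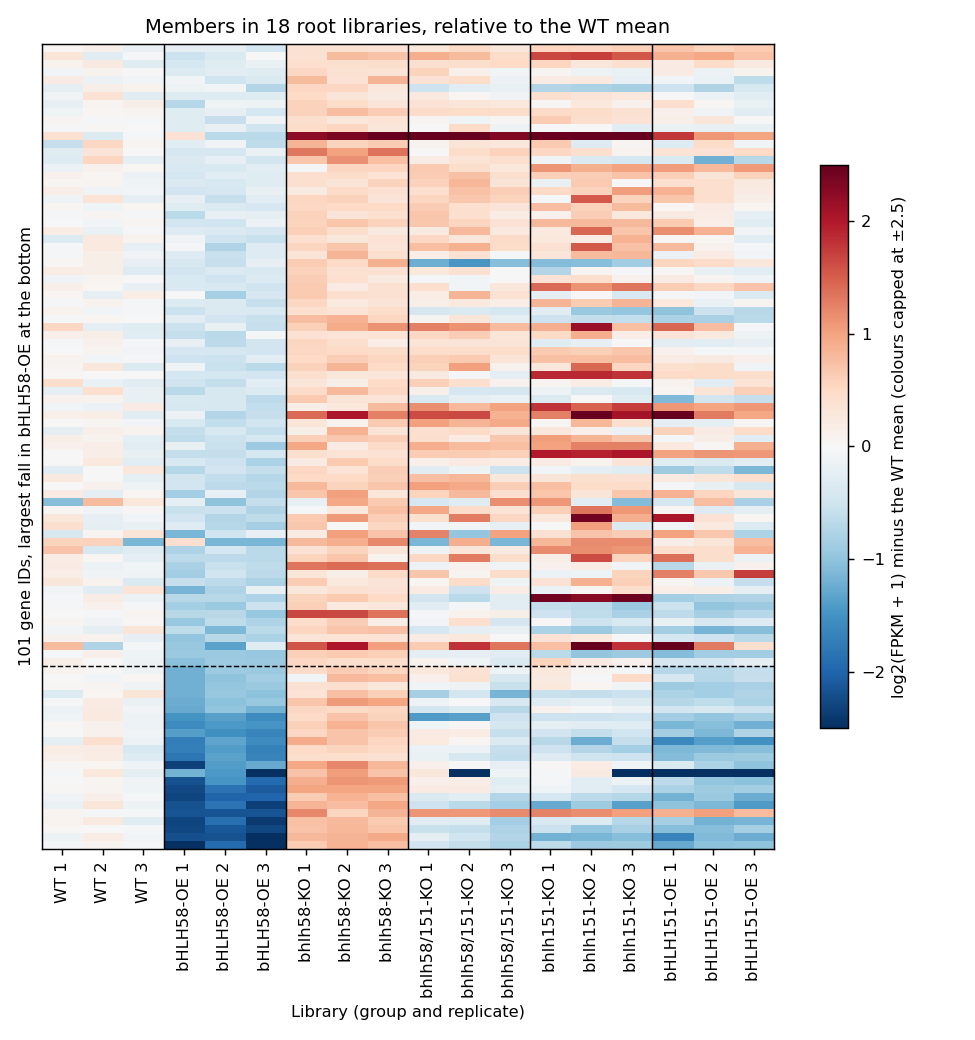
Values of the 101 members in each of the 18 libraries, as log2(FPKM + 1) minus the WT mean (red above WT, blue below, colours capped at 2.5). Rows are ordered by the difference in bHLH58-OE, and the 23 below the dashed line lie at least 1 below WT there; most of these are also blue in bHLH151-OE.

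The 2 members with the lowest values in bHLH58-OE relative to WT also had the widest gap between both lines. PAxG14Ag0026800 was at 19.5, 20.9 and 19.3 FPKM in WT, at 2.72, 4.49 and 2.17 in bHLH58-OE, and at 31.6, 36.9 and 34.2 in bhlh58-KO. The 3 groups were far apart, with a difference of -2.38 in bHLH58-OE and 0.75 in bhlh58-KO. PAxG01Ag0006200 was at 11.7, 14.8 and 12.1 FPKM in WT, at 2.01, 2.06 and 1.44 in bHLH58-OE and at 23.4, 23.9 and 25.8 in bhlh58-KO, with differences of -2.29 and 0.88. In both IDs the distance from WT was larger in bHLH58-OE.

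The 2 members with the highest values in bhlh58-KO relative to WT overlapped WT in bHLH58-OE. PAxG01Gg0110200 was at 3.3, 1.58 and 2.19 FPKM in WT, at 3.21, 1.06 and 1.06 in bHLH58-OE and at 14.5, 15.8 and 26.9 in bhlh58-KO. Its libraries of bHLH58-OE and WT overlapped, and the difference of -0.33 was close to the limit of the rule, beside 2.56 in bhlh58-KO. PAxG01Ag0218300 was at 1.4, 1.47 and 0.807 FPKM in WT, at 0.995, 0.329 and 0.476 in bHLH58-OE and at 4.85, 7.93 and 4.28 in bhlh58-KO. The overlap came with differences from WT of -0.48 in bHLH58-OE and 1.56 in bhlh58-KO.

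How the members behaved in lines that the rule did not use was asked next. In bHLH151-OE against bhlh151-KO, no library took part in the choice of members other than through the mean of all 18. Most members were lower in bHLH151-OE than in bhlh151-KO. Of the 101, 40 were called lower and 3 higher in bHLH151-OE (limma, adjusted p under 0.05), or 39.6% and 2.97% of the members, where 9.39% of all tested IDs were called lower and 11.4% higher (20.8% in either direction). The median log2 fold change of the members was -0.39 (quartiles -0.63 and -0.10), beside 0.02 over all 40951 tested IDs. Lower values in bHLH151-OE were seen in 88 members (87.1%), beside 47.4% of all tested IDs. The 40 lower calls became 35 to 38 when a library of either group was left out, and 39 to 42 under the other transformations, scalings and fits. Against WT, 1 member (PAxG10Ag0148900) was called higher in bhlh151-KO and lower in bHLH151-OE, and 1 the reverse. Called lower in both were 10 also lower in the double knockout and 11 not called there. Called higher in both were 11 also higher in the double knockout and 3 not called there. The shares of all tested IDs with these combinations were not counted, so whether the members have few or many of them is not known. The WT libraries also took part in the choice of members.

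PAxG10Ag0148900 had the largest fall in that comparison. It was at 11.7, 10.5 and 12.1 FPKM in bhlh151-KO and at 0.319, 0.371 and 0.417 in bHLH151-OE, with WT at 1.38 ± 0.280 (SD, n = 3), which gave a log2 fold change of -3.18 (SE 0.12, adjusted p = 1.43e-12 by limma). The same ID was at 0.440 ± 0.0405 in bHLH58-OE and 2.52 ± 0.185 in bhlh58-KO, so it lay below WT in both overexpression lines and above WT in both single knockouts. PAxG01Gg0110200 was at 17.3, 24.0 and 22.0 FPKM in bhlh151-KO and at 10.2, 6.00 and 5.53 in bHLH151-OE (-1.46, SE 0.34, adjusted p = 0.00700 by limma). Both bHLH151 lines were above WT for this ID.

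The 3 members called higher in bHLH151-OE than in bhlh151-KO were PAxG18Gg0135500, PAxG13Gg0009400 and PAxG04Ag0062900, the last 2 of them low IDs named after their values were seen. PAxG18Gg0135500 was at 9.64, 9.23 and 7.96 FPKM in bHLH151-OE and at 2.46, 2.49 and 3.02 in bhlh151-KO, a log2 fold change of 1.44 (SE 0.13, adjusted p = 1.68e-07 by limma). PAxG13Gg0009400 was at 4.22, 2.48 and 6.21 against 0.964, 0.991 and 2.20 (1.13, SE 0.23, adjusted p = 0.00133 by limma). PAxG04Ag0062900 was at 1.14, 1.62 and 2.1 against 0.885, 0.591 and 0.561 (0.63, SE 0.19, adjusted p = 0.0245 by limma). The groups did not overlap in any of the 3.

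**Figure D2:**
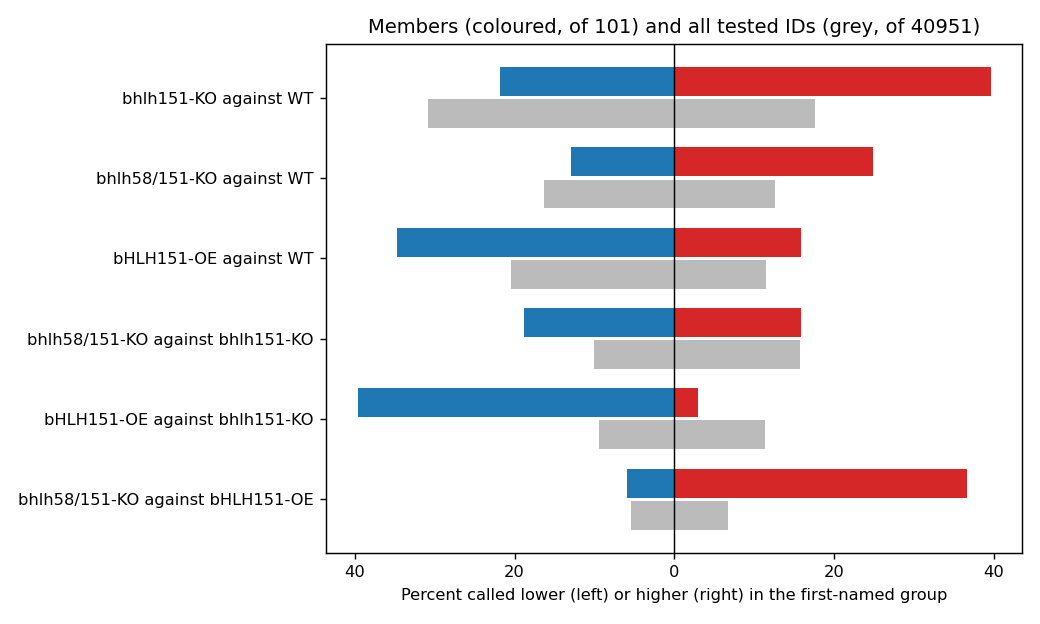
Percent of the 101 members (coloured bars) and of all 40951 tested IDs (grey bars) called lower, to the left, or higher, to the right, in the first-named group of 6 comparisons (limma, adjusted p under 0.05). The widest gaps to grey are the 39.6% lower in bHLH151-OE against bhlh151-KO and the 36.6% higher in the double knockout against bHLH151-OE.

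The gaps between overexpression and knockout were set side by side for both genes, since these 4 groups share no library. Across the 101 members the gap for bHLH58 and the gap for bHLH151 had a Pearson r of 0.18 and a Spearman rho of 0.26. Over all 40951 tested IDs the values were 0.34 and 0.35. These describe IDs measured in the same libraries, which are not independent replicates, and the rule restricts the range of the bHLH58 gap. Over all tested IDs a lower bHLH58 gap thus tended to go with a lower bHLH151 gap. Whether the excess of lower calls in bHLH151-OE against bhlh151-KO is particular to the members was not tested. PAxG01Ag0006200, which has the widest bHLH58 gap at -3.17, was at 3.35, 5.46 and 4.86 FPKM in bHLH151-OE and at 5.08, 5.23 and 5.64 in bhlh151-KO (log2 difference -0.20, SE 0.14, adjusted p = 0.346 by limma), and these groups overlapped.

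**Figure D3:**
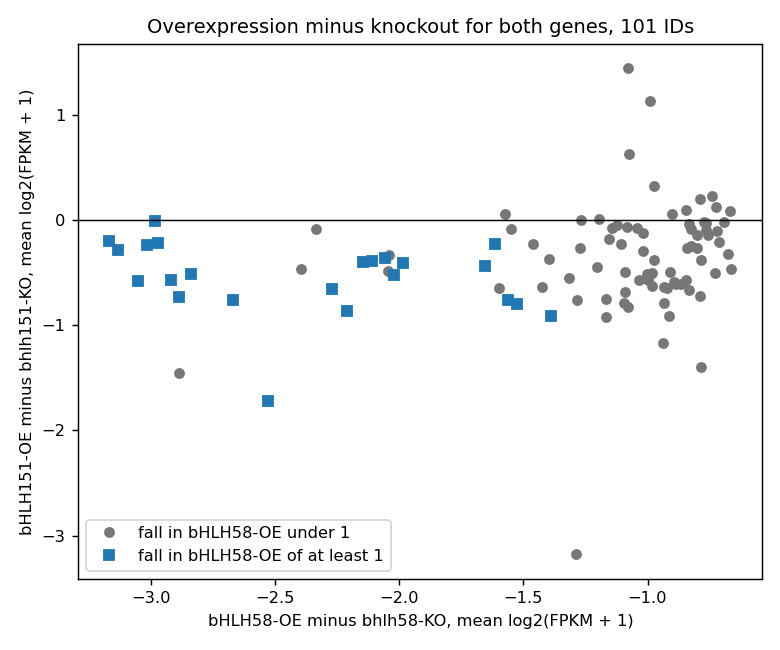
Difference of the group means of log2(FPKM + 1) between overexpression and knockout for bHLH58 (horizontal axis) and bHLH151 (vertical axis), 1 point for each of the 101 members. Squares are the 23 members at least 1 below WT in bHLH58-OE; 88 of the 101 points lie below 0 on the vertical axis, and the horizontal position is set by the rule.

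The double knockout was then compared with the bHLH151 lines, again without a library that chose the members, although these comparisons share the double knockout with each other and bHLH151-OE or bhlh151-KO with the one above. Against bHLH151-OE, 37 members were called higher and 6 lower in the double knockout (limma, adjusted p under 0.05), or 36.6% and 5.94%, where 6.72% and 5.45% of all tested IDs were called (12.2% together). The 6 lower calls became 3 without bHLH151-OE replicate 3. The median was 0.33 for the members and 0.03 for all tested IDs. PAxG01Gg0110200 was at 33.1, 26.5 and 15.4 FPKM in the double knockout (log2 difference 1.64, SE 0.34, adjusted p = 0.00560 by limma). PAxG04Gg0017300 was at 49.9, 47.1 and 37.1 in the double knockout and at 23.4, 21.1 and 17.9 in bHLH151-OE (1.07, SE 0.12, adjusted p = 6.38e-06 by limma). All its libraries of the double knockout were above those of bHLH151-OE.

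Among the 6 lower in the double knockout than in bHLH151-OE, PAxG18Gg0135500 had the largest change, at 2.17, 1.68 and 2.52 FPKM in the double knockout (log2 difference -1.68, SE 0.13, adjusted p = 1.88e-07 by limma). It is the one member that was lowest of all groups in the double knockout. PAxG02Ag0038500 was at 5.10, 4.27 and 3.64 FPKM in the double knockout and at 7.00, 5.83 and 7.07 in bHLH151-OE (-0.52, SE 0.14, adjusted p = 0.0179 by limma). Its call was lost without replicate 2 or 3 of the double knockout and without replicate 1 or 3 of bHLH151-OE (limma adjusted p = 0.0527, 0.0868, 0.0569 and 0.0704).

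Against bhlh151-KO the double knockout showed calls in both directions, with 16 members higher and 19 lower, or 15.8% and 18.8%, beside 15.7% and 10.0% of all tested IDs, 25.7% together (limma, adjusted p under 0.05). Neither direction held the majority in all settings: the share of lower calls among the called members was 54.3%, and it was 65.6% under median-of-ratios scaling, 48.0% in a fit of only the compared groups, where 12 were called lower, and 43.8% without double-knockout replicate 3. The 16 higher calls became 9 without double-knockout replicate 2 or bhlh151-KO replicate 3, and 10 without double-knockout replicate 1 or with no filter on low values. The median of the members was -0.03, beside 0.06 over all tested IDs, and it was 0.02 without double-knockout replicate 3 and 0.03 without bhlh151-KO replicate 2. PAxG08Ag0082800 rose from 4.31, 3.88 and 3.3 FPKM in bhlh151-KO to 6.34, 7.05 and 7.37 in the double knockout (log2 difference 0.72, SE 0.11, adjusted p = 3.67e-05 by limma). PAxG01Ag0006200 rose as well, to 10.8, 8.71 and 7.33 FPKM (0.64, SE 0.14, adjusted p = 0.00185 by limma).

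PAxG10Ag0148900, highest in bhlh151-KO, was at 0.733, 0.484 and 0.970 FPKM in the double knockout (log2 difference -2.85, SE 0.12, adjusted p = 1.20e-12 by limma). PAxG04Ag0153900 was at 63.0, 62.5 and 59.4 FPKM in bhlh151-KO and at 19.0, 15.6 and 13.7 in the double knockout (log2 difference -1.88, SE 0.082, adjusted p = 2.24e-12 by limma). Its WT libraries, at 16.7, 16.0 and 16.0, overlapped with those of the double knockout. For both IDs the high level of the single knockout of bHLH151 was thus not seen in the line that lacks both genes.

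**Figure D4:**
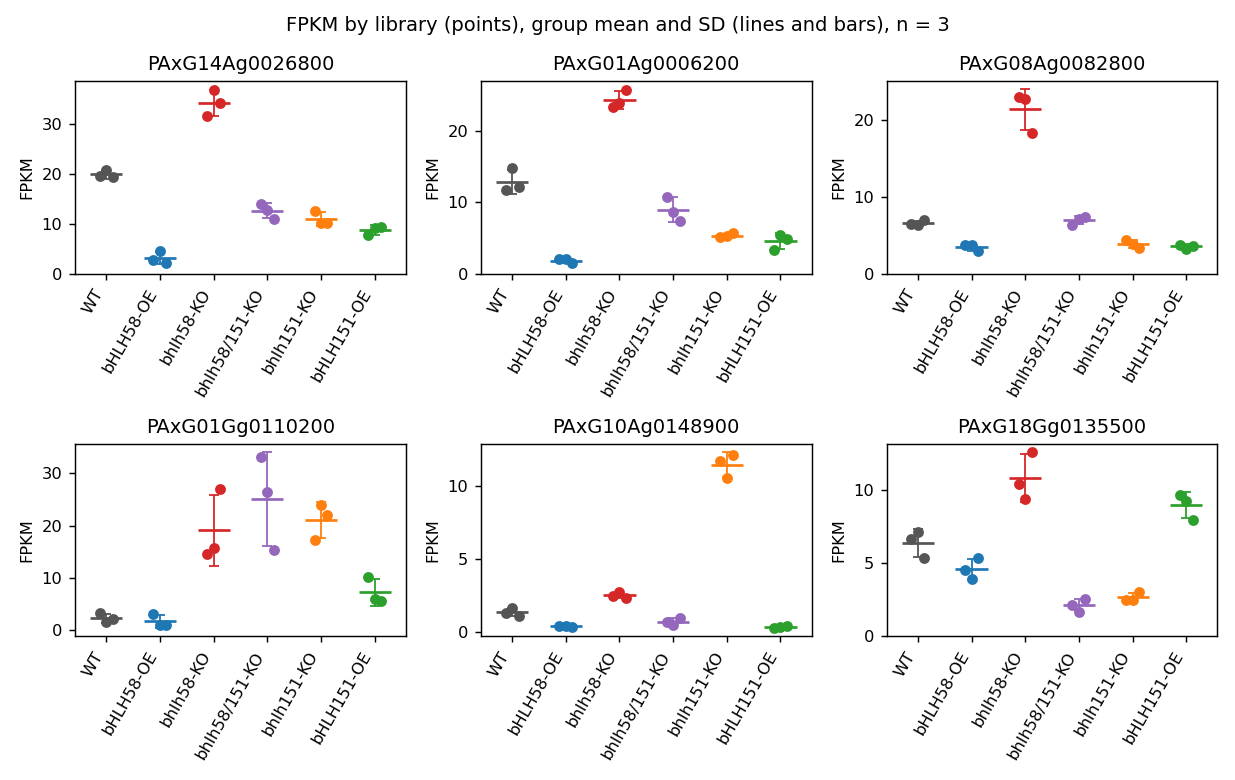
FPKM of 6 members by group, with 1 point per library, a line at the mean and a bar of 1 SD (n = 3). PAxG14Ag0026800, PAxG01Ag0006200 and PAxG08Ag0082800 peak in bhlh58-KO, PAxG10Ag0148900 peaks in bhlh151-KO, PAxG01Gg0110200 is high in all 3 knockout lines, and PAxG18Gg0135500 is low in both lines that lack bHLH151.

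The remaining comparisons are against WT and share the WT libraries with the rule and with each other. In bhlh151-KO, 40 members were called higher and 22 lower (limma, adjusted p under 0.05), beside 17.6% and 30.8% of all tested IDs, 48.4% together. The 40 higher calls became 29 without bhlh151-KO replicate 2 and 28 without WT replicate 3. The members' median was 0.21 while that of all tested IDs was -0.11, and under median-of-ratios scaling they were 0.31 and 0.00. In the double knockout 25 were called higher and 13 lower, beside 12.6% and 16.3% of all tested IDs, 28.8% together. There the share of lower calls among members was 34.2%, and 23.8% under median-of-ratios scaling, and the 13 lower calls became 8 without double-knockout replicate 3. In bHLH151-OE 16 were called higher and 35 lower, beside 11.5% and 20.4% of all tested IDs, 32.0% together, and the members' median of -0.06 was close to that of all tested IDs at -0.09. The 16 higher calls became 10 without bHLH151-OE replicate 1, and the median became 0.02 under median-of-ratios scaling and 0.03 without bHLH151-OE replicate 3.

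Among members eligible for naming, PAxG01Gg0110200 had the largest rise against WT both in bhlh151-KO, by 2.74 on the log2 scale (SE 0.34, adjusted p = 1.10e-05 by limma), and in the double knockout, by 2.92 (SE 0.34, adjusted p = 2.15e-05 by limma). In bHLH151-OE it rose by 1.28 (SE 0.34, adjusted p = 0.0106 by limma), a call lost without bHLH151-OE replicate 1 (limma adjusted p = 0.0508). PAxG01Ag0218300 was at 13.0, 4.44 and 3.28 FPKM in bHLH151-OE (1.64, SE 0.45, adjusted p = 0.0131 by limma). Its replicates were uneven, and the call was lost without WT replicate 3 or bHLH151-OE replicate 1 (limma adjusted p = 0.0504 and 0.0517). PAxG10Ag0148900 rose by 2.38 in bhlh151-KO (SE 0.12, adjusted p = 4.83e-12 by limma).

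NewGene_4484 was listed at 0 in all 3 bHLH58-OE libraries and at 3.64, 3.37 and 3.35 FPKM in WT. It was at 8.62, 8.40 and 9.08 FPKM in the double knockout (log2 difference 1.12, SE 0.12, adjusted p = 1.93e-06 by limma), with 8.87 ± 0.698 in bhlh151-KO and 7.35 ± 0.710 in bHLH151-OE. It thus stood above WT in every line other than bHLH58-OE. A value of exactly 0 may reflect a failed estimate, so no fold is given for bHLH58-OE.

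Other members fell below WT in the lines with altered bHLH151. PAxG01Ag0006200 fell by 1.13 when bHLH151 was knocked out (SE 0.14, adjusted p = 1.99e-06 by limma) and by 1.33 in bHLH151-OE (SE 0.14, adjusted p = 7.03e-07 by limma), with all libraries of both lines below those of WT. PAxG01Gg0005300 was at 4.87, 7.07 and 5.03 FPKM in WT, at 1.73, 2.57 and 1.58 in bhlh151-KO (log2 difference -1.17, SE 0.16, adjusted p = 6.03e-06 by limma) and at 2.29, 2.03 and 1.46 in bHLH151-OE (-1.18, SE 0.16, adjusted p = 1.33e-05 by limma). In the double knockout the largest falls were those of PAxG18Gg0135500 (-1.24, SE 0.13, adjusted p = 1.49e-06 by limma) and PAxG04Ag0046800 (-1.09, SE 0.17, adjusted p = 6.94e-05 by limma). The latter was at 9.67, 12.6 and 9.62 FPKM in WT and at 3.33, 3.54 and 7.07 in the double knockout, where the third library stood apart from the others.

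Placed on the range set by both bHLH58 lines, the double knockout lay at or above bhlh58-KO in 25 members, from WT up to bhlh58-KO in 38, between bHLH58-OE and WT in 36, and at or below bHLH58-OE in 2. It was below bhlh58-KO in 76 members, with a median difference of -0.28, beside -0.06 over all tested IDs. No test is given, because bhlh58-KO libraries chose the members for high values. PAxG08Ag0082800 lay toward the low end, with a difference of -1.49 in a range of -1.92 to 0.59. It was at 23.0, 22.7 and 18.3 FPKM in bhlh58-KO, at 6.34, 7.05 and 7.37 in the double knockout and at 6.47, 6.28 and 6.91 in WT. The libraries of the double knockout and WT overlapped, and those of bhlh58-KO were far above both.

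The bHLH151 lines were spread more widely over the same range. Members at or above bhlh58-KO numbered 37 in bhlh151-KO and 17 in bHLH151-OE, and members at or below bHLH58-OE numbered 4 and 11. The highest of the 6 group means was that of bhlh58-KO in 57 members, of bhlh151-KO in 34, of the double knockout in 8 and of bHLH151-OE in 2. The lowest was that of bHLH58-OE in 89 members and of bHLH151-OE in 10. By the rule WT could be neither highest nor lowest, bHLH58-OE not highest and bhlh58-KO not lowest. These ranks therefore only describe the members. Some of the highest means in bhlh151-KO were raised by replicate 2. PAxG03Gg0099900, chosen after its values were seen, was at 5.06, 43.8 and 11.5 FPKM there. In bHLH151-OE it was at 29.8, 7.79 and 3.77 FPKM, with replicate 1 the highest.

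The members farthest below WT in bHLH58-OE shared much of their profile over the other lines. Of the 23 at least 1 below WT, a limit set after the values were seen and so without a test, 22 had their highest group mean in bhlh58-KO and 22 their lowest in bHLH58-OE. WT was second highest in 17 and bHLH151-OE second lowest in 18. Exactly 13 of them followed the order bhlh58-KO, WT, double knockout, bhlh151-KO, bHLH151-OE, bHLH58-OE from high to low, an order that none of the other 78 members had. Their median differences from WT were -0.92 in bHLH151-OE, -0.48 in bhlh151-KO and -0.29 in the double knockout. The WT and bHLH58 libraries chose these IDs, so their ranks and differences from WT only describe them.

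In the other 78 members the medians were 0.06 in bHLH151-OE, 0.43 in bhlh151-KO and 0.35 in the double knockout. The 23 had a median of 9.65 FPKM over all libraries, beside 4.13 in the 78. This is partly built in, because low IDs can hardly reach a difference of 1 on the log2(FPKM + 1) scale. PAxG19Gg0074300, chosen after its values were seen, was at a mean of 0.858 FPKM in WT and 0.164 in bHLH58-OE. Its difference was only -0.67, so it is among the 78. In both sets bHLH151-OE was lower than bhlh151-KO more often than higher, with 13 called lower and 0 higher of the 23, and 27 lower and 3 higher of the 78, beside 9.39% lower and 11.4% higher of all tested IDs. In the double knockout against bHLH151-OE, 17 of the 23 were called higher and 0 lower, and of the 78, 20 were called higher and 6 lower, beside 6.72% and 5.45% of all tested IDs. The calls come from the fit over all IDs. The split was made after the values were seen, so the counts in each set only describe it.

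Most IDs hold a 2-digit number followed by A or G, and others the prefix NewGene. Of the members 52 had the letter A, 43 the letter G, 5 were NewGene IDs and 1 had another form. The letter A made up 54.7% of the lettered members and 50.6% of the lettered IDs with a mean of at least 1 FPKM. Members were found under all 19 numbers, under both letters for 15 of them. Within 1 number and letter, 5 pairs of members had serial numbers at most 200 apart, 4 of them at the table's step of 100. The sources used here do not say how reads that match several similar genes were assigned, so levels of similar copies are uncertain.

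The pair that reached a change of at least 1 in both bHLH58 lines differed in level. Both IDs were below WT in the overexpression lines and above it in bhlh58-KO. In bhlh151-KO the difference from WT was -0.15 for PAxG05Gg0088900 and 0.04 for PAxG05Gg0089000. Likeness of their profiles was not tested. PAxG05Gg0088900 was at 34.3 ± 1.79 FPKM in WT, 8.85 ± 2.46 in bHLH58-OE, 70.5 ± 5.03 in bhlh58-KO and 18.2 ± 2.82 in bHLH151-OE (SD, n = 3). PAxG05Gg0089000 was at 4.02 ± 0.242 FPKM in WT, 9.12 ± 1.31 in bhlh58-KO and 2.1 ± 0.711 in bHLH151-OE, with 0, 0.902 and 1.08 in the bHLH58-OE libraries. Against bhlh151-KO both were called lower in bHLH151-OE (-0.73, SE 0.15, adjusted p = 0.00117 by limma, and -0.76, SE 0.21, adjusted p = 0.0134 by limma). In the double knockout they were at 34.6 ± 6.12 and 3.95 ± 0.571 FPKM, within 1 SD of WT.

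Replicate spread was wider in the members than in all tested IDs in every group. The median SD of log2 values ran from 0.139 in bhlh58-KO to 0.217 in the double knockout for the members, and from 0.117 to 0.130 over all tested IDs. Of the 101 members, 83 were called in at least 1 of the 6 tested comparisons and 18 in none (limma, adjusted p under 0.05), where 61.0% of all tested IDs were called in at least 1. The median over members of the difference from the WT mean was 0.53 to 0.56 in the bhlh58-KO libraries, -0.60 to -0.54 in those of bHLH58-OE, 0.10 to 0.25 in those of bhlh151-KO, 0.11 to 0.30 in those of the double knockout and -0.22 to 0.02 in those of bHLH151-OE.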

How the data were processed

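The authors deposited 1 table of FPKM values, a unit given by the table's name, with 1 value per gene ID and library. The submitters' processing notes name DESeq2 without a role. Aligner, genome build, annotation and filters were not given in the sources used here. Ratios of values under 0.3 FPKM between libraries showed no whole-read steps (fullest bin of 0.02 at most 1.58% in 153 pairs), so depth stays unknown and no count test was run.

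Values were transformed as log2(FPKM + 1). The 40951 IDs that reached 1 FPKM in 3 or more libraries, all 101 members among them, entered 1 fit of the 18 libraries (limma 3.58.1, R 4.3.3; trend and robust estimation, 12 residual degrees of freedom), checked on simulated data. Calls are at a Benjamini-Hochberg adjusted p under 0.05 over all tested IDs. Fold changes on this scale understate changes of low IDs. Fits that leave out a library assume that a pair varies like the other groups.

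The members and lists were chosen with earlier results of these data known. Named IDs are at most 2 per direction and comparison: called, groups not overlapping, at least 5 FPKM in the higher group, largest change; others are stated as chosen after their values were seen. Alternatives were a pseudocount of 0.1, no filter, 3 scalings, a fit of only the compared groups, a replicate block and leaving out each library.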

Additional observations from a re-analysis of the deposited data

Results flagged for a closer look

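PAxG18Gg0135500 moved in opposite directions in both pairs of lines. All its bHLH151-OE libraries were above all its bhlh151-KO libraries (log2 difference 1.44), while its bHLH58-OE libraries were below those of bhlh58-KO (-1.08), as the choice of members requires. The difference between both pairs was not tested, because 1 side of it chose the member.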

How the results depend on the processing

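The total counts of members called, both directions together, in the 6 tested comparisons stayed within 1.5 times under every alternative run. Counts in 1 direction moved more in 4 comparisons, as given above. Without 1 library in turn they were 49 to 61 for bhlh151-KO against WT (62 with all libraries), 30 to 34 for the double knockout against WT (38), 43 to 51 for bHLH151-OE against WT (51), 25 to 32 for the double knockout against bhlh151-KO (35), 37 to 41 for bHLH151-OE against bhlh151-KO (43) and 30 to 41 for the double knockout against bHLH151-OE (43). The shares of all tested IDs called fell as well in these fits. In the same order they were 42.6% to 44.2% (48.4% with all libraries), 22.3% to 25.1% (28.8%) and 26.2% to 28.0% (32.0%). For the last 3 comparisons they were 21.3% to 22.9% (25.7%), 16.4% to 19.5% (20.8%) and 8.55% to 11.2% (12.2%). With the replicate number as a block the total counts of members were 62, 39, 49, 35, 43 and 42 in the same order. Same-numbered libraries did not deviate together (r from -0.17 to 0.07 in 45 pairs, 8 of 18 libraries closest to their own number). The labels do not say what the numbers stand for, and the block changed no total by over 1.5 times. Of the values of named IDs under the alternatives, 292 kept direction and side of the threshold, 0 reversed, and the 7 that lost their call are given above. The number of members depends on the rule: it was 208 with a pseudocount of 0.1 and 185 after rescaling to TPM, which raises all values against the pseudocount and the minimum mean, and each held all 101. It was 47 with a mean of at least 5 FPKM and 35 with a limit of 0.5. Without 1 library of WT or of a bHLH58 line it was 101 to 136; 79 of the 101 were kept without WT replicate 2. Depth is unknown, so the precision of low IDs is known only from the spread of 3 libraries.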

Other observations

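PAxG04Ag0046700 and PAxG04Ag0046800, members with adjoining serial numbers, stood at nearly equal FPKM in 16 of the 18 libraries. In the 15 libraries outside the double knockout the ratio of the first to the second ran from 0.903 to 1.18. In the double knockout it was 3.87, 3.58 and 1.01, from 12.9, 12.7 and 7.15 FPKM for the first and 3.33, 3.54 and 7.07 for the second. The sum of both IDs was 16.2, 16.2 and 14.2 FPKM there, so it differed less between these libraries than either ID. PAxG04Ag0046800 was called lower in the double knockout than in WT, and PAxG04Ag0046700 was not (log2 difference -0.06, limma adjusted p = 0.797). The pair was noticed after the values were seen, and how its reads were assigned was not tested.

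NewGene_1228 was listed at 0 in all 3 bHLH151-OE libraries, in bHLH58-OE replicate 3, in double-knockout replicate 2 and in bhlh151-KO replicate 3. In the other libraries it ran from 1.06 FPKM in bHLH58-OE to 10.5 in bhlh58-KO. It is 1 of 6 members with a value of 0 in some library, chosen here after its values were seen.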
